A study of Homo sapiens with 18 samples.

Results

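The 10 genes followed here encode the machinery with which a cell receives an interferon (IFN) signal and then shuts it off. They comprise 4 receptor chains (IFNAR1, IFNAR2, IFNGR1 and IFNGR2), 3 Janus kinases (JAK1, JAK2 and TYK2) and 3 inhibitors (SOCS1, SOCS3 and PTPN2). The genes were chosen by name, and all 10 were found among the 25492 genes that are listed in each of the 3 expression tables. The receptors, kinases and inhibitors were followed in 18 RNA-seq libraries, 3 for each of 6 groups of triple-negative breast cancer (TNBC) cells. BT-549 cells (BT549 in the labels) carried a stable short hairpin RNA (shRNA) against PBRM1, a subunit of the PBAF chromatin remodeling complex, and were compared with BT-549 cells carrying a stable control shRNA. In a separate experiment, BT-549 cells carried a stable shRNA against IRF1, a transcription factor of the IFN response, and had control shRNA cells of their own. MDA-MB-436 cells (MDAMB436 in the labels), a BRCA1-mutant line, carried a tetracycline-inducible shRNA against MUC1, which encodes a transmembrane mucin. These cells received doxycycline (DOX) at 500 ng/ml, which turns the hairpin on, or 0.1% DMSO as vehicle. All of the lines were labeled as puromycin resistant, the labels name no added IFN, and no further hairpin to the same target was analysed here. No DOX-treated group with a control hairpin was used here, so an effect of DOX itself and of MUC1 silencing cannot be told apart.

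Type I IFNs bind a receptor made of IFNAR1 and IFNAR2, whose tails carry TYK2 and JAK1. IFN-gamma binds IFNGR1, which carries JAK1, and IFNGR2, which carries JAK2. The kinases phosphorylate the receptors and then STAT factors, which enter the nucleus and turn on IFN-stimulated genes (ISG). SOCS1 and SOCS3 are induced by the pathway and block JAK activity, SOCS3 mainly at receptors of the IL-6 family, and PTPN2 is a phosphatase that removes phosphate from JAKs and STATs.

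IFNAR2, IFNAR1 and IFNGR2 lie in 1 cluster on chromosome 21 in the RefSeq annotation of GRCh38.p14. IFNAR2 spans 33229938 to 33265664, IFNAR1 33324395 to 33359864 and IFNGR2 33402882 to 33437516, all on the plus strand. The remaining members are on separate chromosomes, with JAK1 on 1, IFNGR1 on 6, JAK2 on 9, SOCS1 on 16, SOCS3 on 17, PTPN2 on 18 and TYK2 on 19. RefSeq start-site windows of 300 bases were held for 9 members (17 windows, none for IFNAR2). They were searched on both strands for GAAA-NN-GAAA (no gap in the sequence, N for any base), the core of an IFN-stimulated response element (ISRE), and for TTCNNNGAA, the core of a gamma-activated site. Matches to these motifs can share the letters GAA. The first was present in 3.57% of all 35116 windows and in 1 member window, that of SOCS1. The second was present in 7.66% of all windows and in 0 of the 17 member windows. The only PTPN2 window lay 88681 bases from the GENCODE start of the gene, so the bases around that start were not searched. For JAK1 and JAK2, 1 window each was also far from it, at 101242 and 57142 bases. A match or its lack describes these letters in these windows only. The 250 bases before the RefSeq start of 3 members are shown 5′ to 3′ on the strand of the gene, in lower case, with the GAAA-NN-GAAA match in capitals. SOCS1 is shown for its match, IFNGR1 as the receptor chain that changed most in MDA-MB-436 cells, and JAK1 as the member of highest level. For IFNGR1 and JAK1, which have several RefSeq starts, the start nearest to that of the GENCODE gene was taken. The windows are chr16:11256205-11256454 (minus strand) for SOCS1, chr6:137219386-137219635 (minus strand) for IFNGR1 and chr1:64966550-64966799 (minus strand) for JAK1.
SOCS1: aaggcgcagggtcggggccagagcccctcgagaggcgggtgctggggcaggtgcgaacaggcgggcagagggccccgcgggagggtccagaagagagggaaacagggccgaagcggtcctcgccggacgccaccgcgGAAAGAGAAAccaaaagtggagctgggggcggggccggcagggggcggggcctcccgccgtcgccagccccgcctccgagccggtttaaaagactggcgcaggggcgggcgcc
IFNGR1: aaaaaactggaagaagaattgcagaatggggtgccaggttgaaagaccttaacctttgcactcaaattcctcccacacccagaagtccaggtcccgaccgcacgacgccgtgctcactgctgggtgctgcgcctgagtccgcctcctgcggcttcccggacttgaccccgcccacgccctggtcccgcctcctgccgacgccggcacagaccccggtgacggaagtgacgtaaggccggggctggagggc
JAK1: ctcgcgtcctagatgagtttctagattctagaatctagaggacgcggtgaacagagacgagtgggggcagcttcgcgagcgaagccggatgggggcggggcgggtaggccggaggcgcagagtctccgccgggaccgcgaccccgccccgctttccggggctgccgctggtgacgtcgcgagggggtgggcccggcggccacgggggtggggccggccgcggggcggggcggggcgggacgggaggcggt
In SOCS1 the match began 113 bases before the start and read GAAAGAGAAA. The windows of IFNGR1 and JAK1 held neither core, and 63.6% and 74.4% of their printed bases were G or C, against 74.0% for SOCS1.

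Levels are in TPM, a unit of transcript abundance that is scaled to a fixed library total, is corrected for transcript length and can be compared between genes of a library. Each library summed to 1000000 TPM, but short noncoding RNAs took much of it, although the labels name a kit for mRNA. Their share was 75.7% to 79.2% in libraries for PBRM1 silencing, 84.8% to 88.5% in those for IRF1 silencing and 12.1% to 15.2% in those for MUC1 silencing. Members were therefore compared within a table, and small changes are also given after these RNAs were left out. The silenced genes were lower in their own experiments. PBRM1 had 3.22, 2.69 and 2.95 TPM in PBRM1-silenced cells against 12.3, 10.7 and 12.6 TPM in control cells. IRF1 had 1.03, 1.30 and 1.18 TPM in IRF1-silenced cells against 5.22, 4.49 and 4.54 TPM in control cells. MUC1 had 3.65, 2.71 and 2.73 TPM with DOX against 6.37, 4.97 and 5.55 TPM with vehicle. ESR1 and PGR, the hormone receptor genes that TNBC lacks, were at or under 0.106 TPM in every library, while ERBB2 ranged over 1.57 to 20.4 TPM. VIM and CD44, markers of mesenchymal-type breast cancer lines, were at 48.3 TPM or above in every library, and SPARC was at or under 1.47 TPM in MDA-MB-436 cells. These 3 mesenchymal markers summed to 1080 to 1147 TPM in PBRM1-silenced cells and 1105 to 1258 TPM in control cells, but they moved in opposite directions. VIM was at 394 to 436 TPM in PBRM1-silenced cells and 324 to 370 TPM in control cells. CD44 was at 186 to 207 TPM in silenced cells and 136 to 162 TPM in control cells, and SPARC at 501 to 513 TPM and 645 to 726 TPM. In the IRF1 experiment VIM was at 193 to 233 TPM in silenced cells and 276 to 366 TPM in control cells. CD44 was at 48.3 to 59.5 TPM in silenced cells and 58.4 to 76.0 TPM in control cells of that experiment. CD44 and SPARC both overlapped there, with SPARC at 91.5 to 120 TPM in silenced cells and 85.2 to 107 TPM in control cells. In MDA-MB-436 cells the 3 markers summed to 1526 to 1605 TPM with DOX and 2348 to 2488 TPM with vehicle, and their part in the results was not tested. Of 10 blood cell markers, all of leukocytes except HBB of red cells, 1 (CD14) reached 1 TPM, and only in MDA-MB-436 cells. The list summed to 7.72 to 11.1 TPM with DOX and 4.44 to 4.99 TPM with vehicle, PTPRC was at or under 0.201 TPM in all 18 libraries, and the part of CD14 in the results was not tested.

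**Figure D1:**
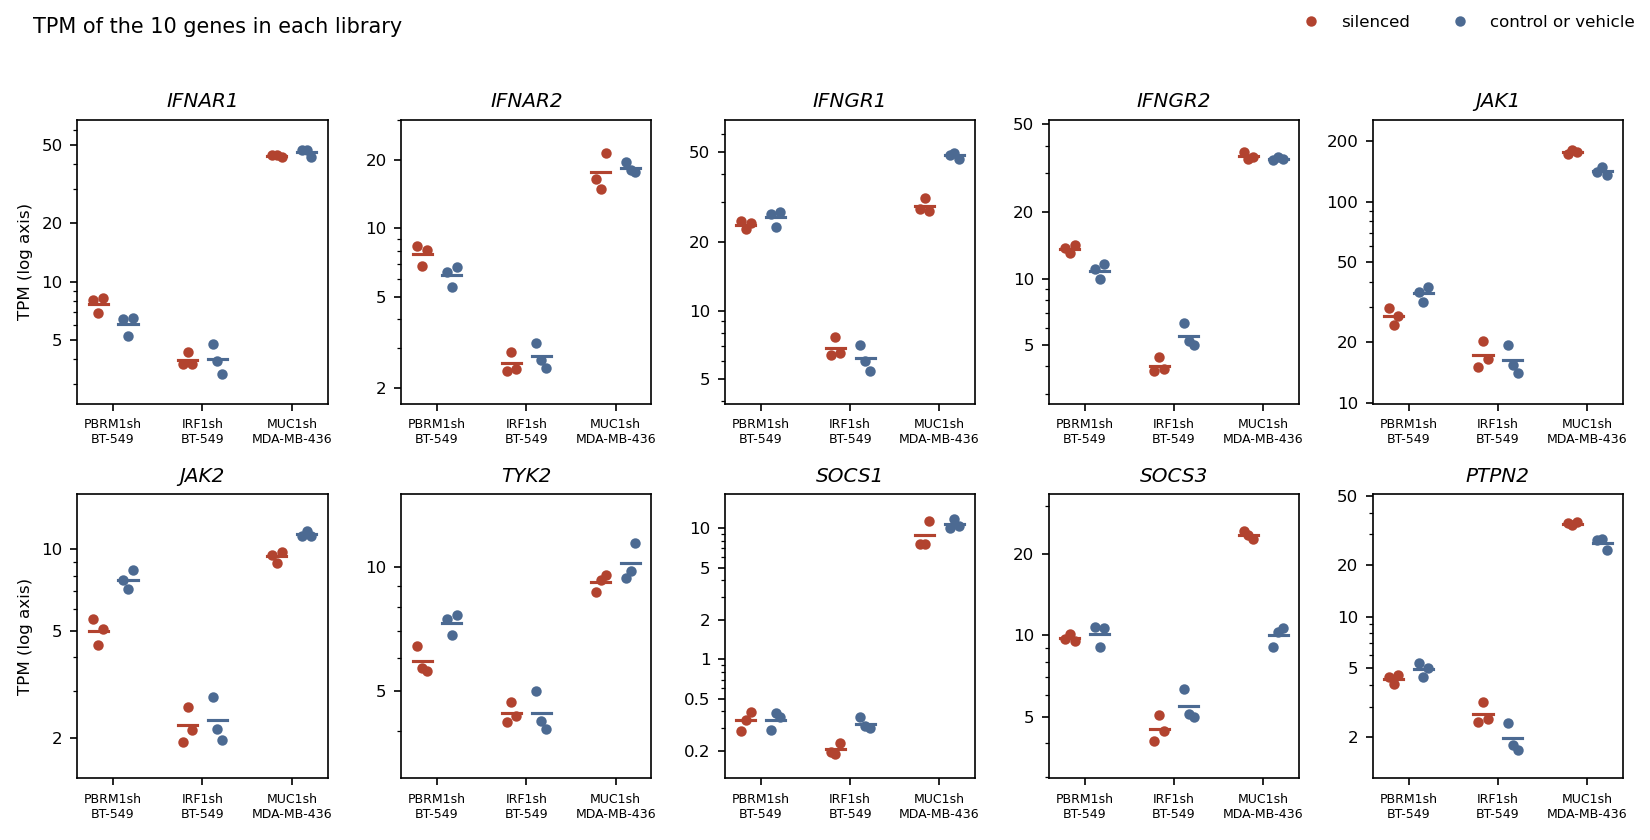
TPM on a log axis for each of the 10 genes, with 1 point per library and a line at the mean of 3 libraries; silenced or DOX-treated libraries are left of their control or vehicle libraries in each experiment. SOCS1 was at or under 0.398 TPM in every BT-549 library and at or above 7.56 TPM in every MDA-MB-436 library.

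JAK1 was the most abundant of the 10 genes in all 6 groups. It averaged 27.0 ± 2.49 TPM in PBRM1-silenced cells and 35.0 ± 2.84 TPM in their controls (SD, n = 3 each). In the IRF1 experiment it averaged 17.4 ± 2.74 TPM in silenced cells and 16.4 ± 2.74 TPM in control cells, and in MDA-MB-436 cells 176 ± 3.47 TPM with DOX and 142 ± 5.82 TPM with vehicle. IFNGR1 was next in 5 of the 6 groups, the exception being DOX-treated MDA-MB-436 cells, in which IFNAR1, IFNGR2 and PTPN2 lay above it. In PBRM1-silenced cells the libraries of JAK1 and IFNGR1 overlapped, as did those of IFNAR2 and IFNAR1 and of JAK2 and PTPN2. Within every one of these libraries, however, JAK1 was above IFNGR1 and JAK2 was above PTPN2, while IFNAR2 and IFNAR1 changed order between libraries. In the controls of that experiment IFNGR2 and SOCS3, JAK2 and TYK2, and IFNAR1 with IFNAR2 and PTPN2 overlapped, but each of these pairs kept its order in every library. SOCS1 was lowest in all 4 BT-549 groups, and no other member overlapped with it there. In vehicle-treated MDA-MB-436 cells JAK2, SOCS1, TYK2 and SOCS3 formed the low end of the order at 10.0 to 11.4 TPM on average, and each overlapped with the next. With DOX, SOCS3 left this low end and stood above IFNAR2, JAK2, TYK2 and SOCS1 without overlap.

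The first comparison asks whether loss of PBRM1 changes the receiving end of the IFN pathway in BT-549 cells. In PBRM1-silenced cells, all 3 receptor chains of the chromosome 21 cluster were higher and all 3 JAKs were lower, while IFNGR1, SOCS3 and PTPN2 did not pass the test and SOCS1 was too low to be tested. Of the 9 members with at least 1 TPM in at least 3 libraries, 3 passed as higher and 3 as lower. Over all 10639 genes tested, 24.6% passed as higher and 34.8% as lower, so calls were also common among all genes. In bulk libraries, a change of RNA per cell and of the share of cells that express a gene cannot be told apart. The median log2 fold was -0.10 over the 9 members and -0.05 over all genes. Fold changes are given as log2 on the log2(TPM + 1) scale with limma's standard error, and a gene passed at an adjusted p under 0.05.

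IFNAR1, the chain that carries TYK2, had 8.05, 6.88 and 8.22 TPM in PBRM1-silenced cells against 6.41, 5.26 and 6.51 TPM in control cells. Every silenced library was above every control library, and the log2 fold was 0.31 ± 0.09 (SE, limma adjusted p = 0.00128). IFNAR2, the chain that carries JAK1, had 8.40, 6.84 and 8.04 TPM in silenced cells against 6.47, 5.54 and 6.76 TPM in control cells. The groups did not overlap, the log2 fold was 0.27 ± 0.09 (adjusted p = 0.00451), and the call was lost in 2 of 6 fits that left out 1 library (0.22, adjusted p = 0.0693, without silenced replicate 1 and 0.25, adjusted p = 0.0605, without silenced replicate 3). IFNGR2, the signaling chain of the IFN-gamma receptor, had 13.8, 13.0 and 14.2 TPM in silenced cells against 11.1, 9.92 and 11.6 TPM in control cells. It was higher by 0.31 ± 0.09 (adjusted p = 0.00108) and passed in 6 of 6 such fits. IFNGR1, the ligand-binding chain, had 24.7, 22.8 and 24.3 TPM in silenced cells against 26.7, 23.4 and 27.3 TPM in control cells. These ranges overlapped, and the log2 fold of -0.10 ± 0.09 did not pass (adjusted p = 0.301). With the shared replicate number as a block, which pairs the libraries in this experiment, IFNGR1 passed as lower at the same fold (adjusted p = 0.0324). It also passed without control replicate 2, the library with the largest share of short noncoding RNA of that experiment (-0.17, adjusted p = 0.0287). Of 7 tested neighbors of the receptor cluster, 5 were higher, 0 lower and 2 did not pass, beside 24.6% higher and 34.8% lower among all genes tested. The higher neighbors included IL10RB, the shared chain of IL-10 and IFN-lambda receptors (0.43 ± 0.09, adjusted p = 4.1e-06), CRYZL1 (0.33 ± 0.09) and DONSON (0.32 ± 0.09). The other tested class II cytokine receptor besides IL10RB and the members, IL20RB, was lower at -1.38 ± 0.09 (adjusted p = 6.1e-55).

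JAK2, the kinase carried by IFNGR2, had 5.53, 4.43 and 5.05 TPM in PBRM1-silenced cells against 7.68, 7.14 and 8.36 TPM in control cells. Its log2 fold of -0.54 ± 0.09 (adjusted p = 4.1e-09) was the largest among the members of this experiment in the fit of the values as deposited. JAK1 had 29.5, 24.5 and 27.0 TPM in silenced cells against 35.6, 31.9 and 37.5 TPM in control cells. The groups did not overlap, and JAK1 was lower at a log2 fold of -0.37 ± 0.09 (adjusted p = 8.3e-05). TYK2 had 6.43, 5.67 and 5.58 TPM in silenced cells against 7.45, 6.83 and 7.65 TPM in control cells. It was lower without overlap at -0.27 ± 0.09 (adjusted p = 0.00442), a call lost without silenced replicate 3 (-0.24, adjusted p = 0.0692). The 6 changed members were also the 6 whose libraries did not overlap, while 62.0% of all genes tested had groups without overlap. Of 6 tested genes for adaptors, chaperones and other proteins that bind JAKs, 3 were lower and 0 higher, with STAM2 and STAM, adaptors that bind JAKs, each at -0.33 ± 0.09. Of 7 tested neighbors of JAK2 on chromosome 9, 3 were lower and 2 higher, and the lower ones included CD274, which encodes the checkpoint ligand PD-L1 (-1.12). Both lists stand beside 34.8% lower and 24.6% higher among all genes tested.

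Neither tested inhibitor passed in this experiment. SOCS3 had 9.71, 10.1 and 9.51 TPM in PBRM1-silenced cells against 10.7, 9.06 and 10.6 TPM in control cells, at a log2 fold of -0.04 ± 0.09 (adjusted p = 0.700). Its 95% interval ran over -0.21 to 0.13. PTPN2 had 4.47, 4.05 and 4.57 TPM in silenced cells against 5.35, 4.44 and 5.02 TPM in control cells. The groups overlapped and the log2 fold of -0.15 ± 0.09 did not pass (adjusted p = 0.138), but it passed at that fold with the replicate block (adjusted p = 0.00946) and, at -0.21, without control replicate 2 (adjusted p = 0.0121). SOCS1 had 0.284, 0.342 and 0.398 TPM in silenced cells against 0.291, 0.390 and 0.360 TPM in control cells and was under the filter. It did not pass with no filter (-0.01, adjusted p = 0.924) or with short noncoding RNAs left out (-0.06, adjusted p = 0.659). The authors' mean normalized count of SOCS1 in this experiment was 15, against 7062 for JAK1, so little can be said of SOCS1 at this depth.

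Several other genes of the pathway had larger log2 folds than any member. IL6, which signals through JAK1 and induces SOCS3, averaged 6.41 ± 0.199 TPM in PBRM1-silenced cells and 104 ± 7.28 TPM in control cells. IL6ST, the signaling chain of IL-6 receptors, was lower at -0.68 ± 0.09, and OSMR, the oncostatin M receptor, at -0.44 ± 0.09. In that IL-6 family list 5 of 7 tested genes were lower and 1 (LIFR) was higher. STAT2, a STAT factor of the type I IFN response, was lower at a log2 fold of -2.13 ± 0.09. STAT3, the main STAT of the IL-6 family, had a log2 fold of -0.16 ± 0.09 that did not pass. Of 5 tested IRFs, 4 were lower, led by IRF7 (-2.06 ± 0.08) and IRF9 (-1.99 ± 0.09), a DNA-binding partner of STAT2. All 14 type I ISGs of the fixed list were lower, with a median log2 fold of -5.65, as were all 10 tested genes of the IFN-gamma list, with a median of -1.88. USP18, an ISG that blocks IFNAR2 signaling, was lower at -3.55 ± 0.09 among 17 tested phosphatases and other inhibitors, of which 4 were lower and 5 higher. PTPN1, the closest relative of PTPN2, was lower at -0.64 ± 0.09. Of the other SOCS genes, 1 of 4 tested was lower (SOCS5, -0.19 ± 0.09) and 0 were higher. The list counts given here stand beside 34.8% lower and 24.6% higher among all genes tested. No IFN gene passed the filter, and IFNB1 was at 0 to 0.0810 TPM in silenced cells and 0.647 to 0.998 TPM in control cells.

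**Figure D2:**
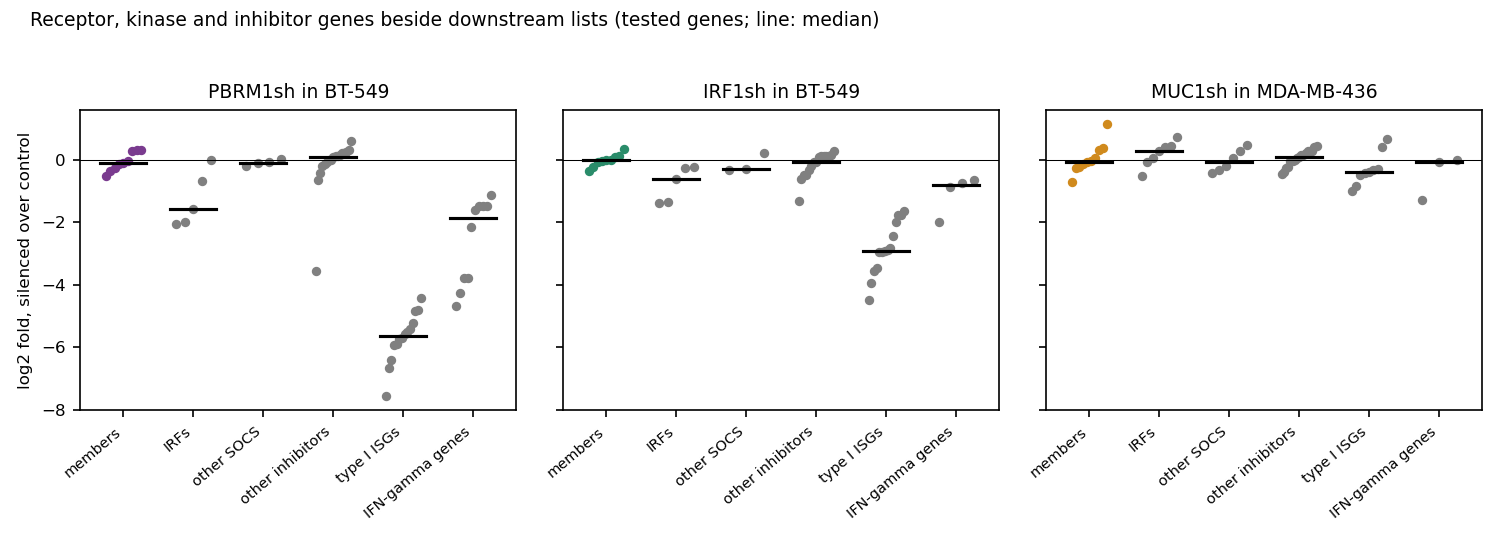
Log2 fold (silenced over control, log2(TPM + 1) scale) of each tested gene in the receptor, kinase and inhibitor set (colored) and in 5 lists of related genes (gray), with a line at each median. The type I ISG medians lie at -5.65, -2.91 and -0.39 in the PBRM1, IRF1 and MUC1 experiments, while the colored points stay within -0.71 to 1.15.

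The next comparison asks the same of IRF1 in BT-549 cells. In IRF1-silenced cells IFNGR2 was lower and PTPN2 was higher, and the other 7 tested members did not pass. Of 9135 genes tested, 18.5% passed as lower and 5.76% as higher. The median log2 fold was -0.01 over the members and -0.06 over all genes. IFNGR2 had 3.80, 4.39 and 3.90 TPM in IRF1-silenced cells against 6.32, 5.22 and 5.02 TPM in control cells. The groups did not overlap, which was so for 33.9% of all genes tested, and the log2 fold was -0.37 ± 0.14 (limma adjusted p = 0.0388). PTPN2 had 2.44, 3.21 and 2.54 TPM in silenced cells against 2.43, 1.80 and 1.68 TPM in control cells. The lowest silenced and the highest control library were nearly equal, and the log2 fold was 0.33 ± 0.12 (adjusted p = 0.0309). Both calls were fragile, since IFNGR2 passed in 3 and PTPN2 in 1 of 6 fits that left out 1 library, at log2 folds of -0.43 to -0.29 and 0.24 to 0.44. IFNGR2 lost its call without silenced replicate 1 (adjusted p = 0.217), silenced replicate 3 (adjusted p = 0.241) or control replicate 2 (adjusted p = 0.145). PTPN2 passed only without control replicate 1, the library of lowest short noncoding RNA share (adjusted p = 1.0e-04), and its adjusted p was 0.0626 to 0.266 without each of the other libraries.

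The remaining receptor chains and the kinases overlapped between the groups. IFNAR1 had 3.78, 4.34 and 3.80 TPM in IRF1-silenced cells against 4.81, 3.90 and 3.38 TPM in control cells, and IFNAR2 had 2.38, 2.88 and 2.43 TPM in silenced cells against 3.16, 2.66 and 2.45 TPM in control cells. IFNGR1 had 6.38, 7.66 and 6.51 TPM in silenced cells against 7.10, 6.0 and 5.45 TPM in control cells. JAK1 had 15.1, 20.4 and 16.6 TPM in silenced cells against 19.4, 15.5 and 14.1 TPM in control cells. In every member except SOCS1 the second silenced library and the first control library were the highest of their groups. These libraries also had the smallest shares of short noncoding RNA (86.3% and 84.8%). The part of this share in the results was not tested beyond the scalings given next to them. JAK2 had 1.94, 2.60 and 2.14 TPM in silenced cells against 2.84, 2.16 and 1.97 TPM in control cells. TYK2 had 4.20, 4.68 and 4.35 TPM in silenced cells against 4.98, 4.23 and 4.03 TPM in control cells. The log2 folds of these 6 genes ran over -0.08 to 0.13, with standard errors of 0.12 to 0.15.

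SOCS3 had 4.06, 5.09 and 4.44 TPM in IRF1-silenced cells against 6.34, 5.12 and 5.0 TPM in control cells, at a log2 fold of -0.23 ± 0.14 (adjusted p = 0.260). SOCS1, which has the GAAA-NN-GAAA match in its start-site window, had 0.196, 0.190 and 0.231 TPM in silenced cells against 0.364, 0.308 and 0.298 TPM in control cells. These SOCS1 groups did not overlap, but the gene was under the filter, and its authors' mean normalized count was 57.4 in this experiment. With no filter SOCS1 had a log2 fold of -0.13 and passed (adjusted p = 0.0215), while IFNGR2 did not (adjusted p = 0.0677).

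Scaling changed several calls in the IRF1 experiment. With short noncoding RNAs left out and each library rescaled to 1000000, SOCS1 passed the filter and was lower at -0.35 (adjusted p = 0.00453), and SOCS3 was lower at -0.15 (adjusted p = 0.0141). IFNGR2 stayed lower at -0.32 (adjusted p = 4.8e-05) and PTPN2 stayed higher at 0.57 (adjusted p = 7.9e-06). IFNGR1 (0.27, adjusted p = 1.8e-04), JAK1 (0.21, adjusted p = 0.00490) and TYK2 (0.12, adjusted p = 0.0484) then passed as higher. Among all genes that passed, the share lower was 76.3% as deposited and 45.4% after this rescaling. In the PBRM1 experiment that share was 58.6% as deposited, 69.1% with short noncoding RNAs left out and 43.3% with median-ratio scaling. There the rescaling without short RNAs gave log2 folds of 0.26 for IFNAR1, 0.22 for IFNAR2 and 0.25 for IFNGR2. The folds were -0.45 for JAK1, -0.68 for JAK2 and -0.38 for TYK2, and the median of all genes moved to -0.16. Relative to that median the log2 folds were 0.42 for IFNAR1, 0.38 for IFNAR2, 0.41 for IFNGR2, -0.29 for JAK1, -0.52 for JAK2 and -0.22 for TYK2. The 6 members that passed in the PBRM1 experiment kept direction and call under all 4 scalings. IFNGR1 (-0.19, adjusted p = 3.9e-04) and PTPN2 (-0.24, adjusted p = 0.00130) also passed there as lower with short noncoding RNAs left out, but with median-ratio scaling the IFNGR1 fold was 0.01 and neither passed. With quantile normalization IFNGR1 passed as lower (-0.11, adjusted p = 0.00472) and PTPN2 did not pass (-0.04, adjusted p = 0.359).

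**Figure D3:**
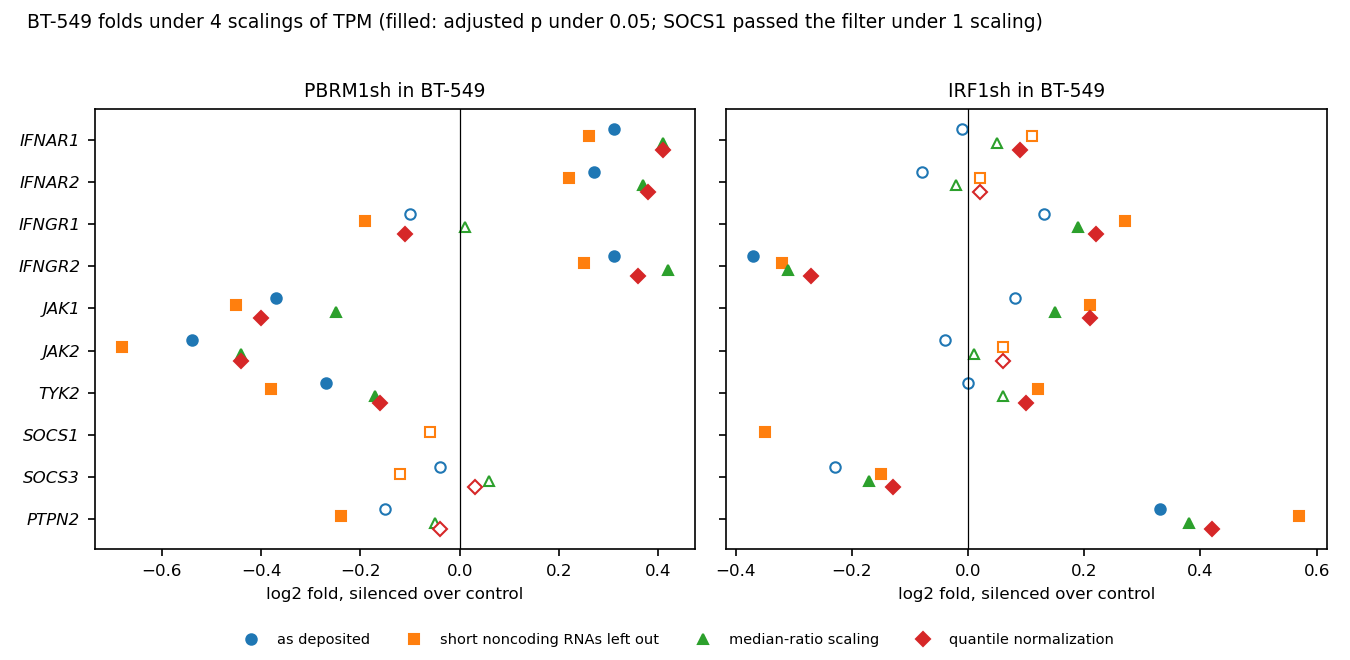
Log2 folds (silenced over control) of the members in the PBRM1 (left) and IRF1 (right) experiments of BT-549 cells under 4 scalings of TPM, filled where the adjusted p was under 0.05. In the IRF1 experiment IFNGR2 lay between -0.37 and -0.27 and PTPN2 between 0.33 and 0.57, and JAK2 crossed zero.

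Downstream of the members, 14 of 14 type I ISGs (median log2 fold -2.91) and 4 of 4 tested genes of the IFN-gamma list (median -0.81) were lower in IRF1-silenced cells. STAT2 was lower at -0.77 ± 0.13, while STAT3 was at 0.06 ± 0.15. Of 15 tested phosphatases and other inhibitors 4 were lower and 0 higher, led by USP18 (-1.32 ± 0.09). Of the other SOCS genes 2 of 3 tested were lower, SOCS5 (-0.33 ± 0.11) and SOCS6 (-0.31 ± 0.11). IL6 was lower at -0.90 ± 0.13 and OSMR was higher by 0.52 ± 0.15. None of the 6 tested genes for JAK adaptors, chaperones and other JAK-binding proteins and 1 of 7 neighbors of the receptor cluster (TMEM50B, 0.56 ± 0.11) passed. Among all genes tested in this experiment, 18.5% were lower and 5.76% higher. IFNB1 was at 0 to 0.0172 TPM in silenced cells and 0.0211 to 0.0772 TPM in control cells.

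The third comparison asks what DOX-induced MUC1 silencing does to these genes in MDA-MB-436 cells. SOCS3 was higher, IFNGR1 and JAK2 were lower, and JAK1 and PTPN2 were higher. Of the 10 members, all tested, 3 passed as higher and 2 as lower, against 27.0% and 23.4% of 13229 genes. SOCS3 was the 1 member past a log2 fold of 1, which 1.34% of all genes passed as higher. The median log2 fold was -0.07 over the members and 0.02 over all genes.

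SOCS3, the feedback inhibitor of gp130 receptors, had 24.2, 23.5 and 22.7 TPM with DOX against 9.08, 10.3 and 10.6 TPM with vehicle. The log2 fold was 1.15 ± 0.07 (limma adjusted p = 3.4e-06), and it stayed within 1.09 to 1.20 when single libraries were left out. The genes whose pattern across 18 libraries was most like that of SOCS3, out of 8893, were PRKAR1B, STMN3 and ABHD5 (Pearson r = 0.98 each, on values centered on the controls of each table). This likeness is a description, since 1 difference between groups can set it. SOCS1 had 7.58, 7.56 and 11.3 TPM with DOX against 10.1, 11.8 and 10.4 TPM with vehicle. The third DOX library lay among the vehicle libraries, and the log2 fold of -0.28 ± 0.14 did not pass (adjusted p = 0.121). Without that library SOCS1 was lower at -0.46 (adjusted p = 0.00403). PTPN2 had 34.6, 34.0 and 35.1 TPM with DOX against 27.8, 28.2 and 24.3 TPM with vehicle, a log2 fold of 0.36 ± 0.06 (adjusted p = 0.00128). The vehicle library with the lowest PTPN2, the third, also had the highest share of short noncoding RNA (15.2%), and PTPN2 was as clearly higher with these RNAs left out (0.35, adjusted p = 7.3e-04).

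IFNGR1 had 28.1, 31.4 and 27.5 TPM with DOX against 48.4, 49.6 and 46.5 TPM with vehicle. It was lower at a log2 fold of -0.71 ± 0.06 (adjusted p = 1.7e-05) and passed in 6 of 6 fits without 1 library. Its partner IFNGR2 had 37.5, 34.8 and 35.4 TPM with DOX against 34.5, 35.6 and 34.8 TPM with vehicle, and the log2 fold of 0.04 ± 0.05 had a 95% interval of -0.07 to 0.14. IFNAR1 had 44.4, 44.7 and 43.7 TPM with DOX against 47.3, 47.5 and 43.8 TPM with vehicle, at -0.06 ± 0.05 (adjusted p = 0.323). With quantile normalization IFNAR1 passed as lower at -0.11 (adjusted p = 0.0469). IFNAR2 had 16.5, 14.9 and 21.5 TPM with DOX against 19.6, 18 and 17.7 TPM with vehicle, at -0.08 ± 0.12 (adjusted p = 0.603). The groups overlapped for both IFNAR chains, and the 95% interval for IFNAR2 was -0.34 to 0.18. Without DOX replicate 3, its highest library, IFNAR2 passed as lower at -0.22 (adjusted p = 0.0452).

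JAK1 had 173, 180 and 176 TPM with DOX against 141, 148 and 136 TPM with vehicle. It was higher without overlap at 0.31 ± 0.04 (adjusted p = 2.1e-04). JAK2 had 9.55, 8.91 and 9.80 TPM with DOX against 11.2, 11.7 and 11.2 TPM with vehicle, and was lower at -0.25 ± 0.07 (adjusted p = 0.0126). TYK2 had 8.71, 9.30 and 9.57 TPM with DOX against 9.41, 9.78 and 11.4 TPM with vehicle, at -0.13 ± 0.09 (adjusted p = 0.221). The 5 members that passed were those whose groups did not overlap, and 59.2% of all genes tested had groups without overlap.

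**Figure D4:**
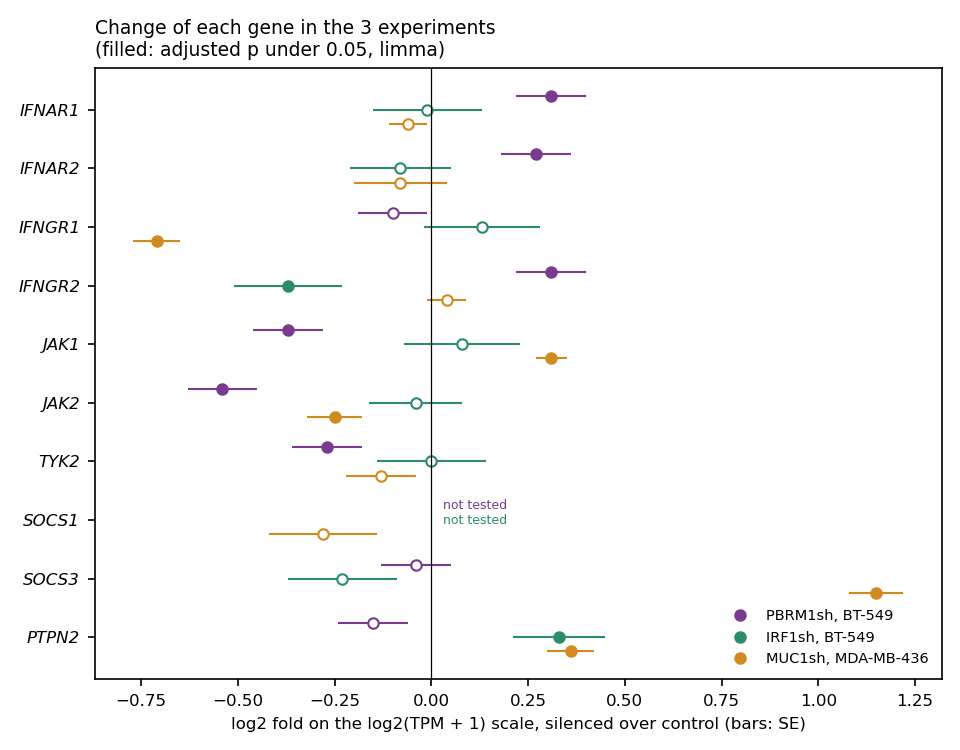
Log2 fold of each gene (silenced over control, or DOX over vehicle, on the log2(TPM + 1) scale) with its standard error in the 3 experiments, filled where the adjusted p was under 0.05. SOCS3 in MDA-MB-436 cells (1.15) is the single point beyond 1, and JAK1 lies at -0.37, 0.08 and 0.31.

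Around the members, STAT4 (0.83 ± 0.20), STAT6 (0.36 ± 0.05), STAT5B (0.31 ± 0.06) and STAT3 (0.19 ± 0.04) were higher with DOX, while STAT2 was at -0.03 ± 0.06. Of 7 tested IRFs 4 were higher, led by IRF9 (0.71 ± 0.07), and IRF8 was lower. Among 9 tested type I ISGs 6 were lower and 1, ISG15 (0.65 ± 0.10), was higher, with a list median of -0.39. Of 3 tested genes of the IFN-gamma list 1 was lower, WARS (-1.30 ± 0.05), while TAP1 was at -0.09 ± 0.13 and GBP1 at -0.02 ± 0.19, and the median was -0.09. In the IL-6 family list IL6R (0.74 ± 0.05) and OSMR (0.36 ± 0.04) were higher, and 4 of 10 tested genes were lower, led by CNTFR (-1.11 ± 0.15) and IL11 (-0.99 ± 0.15). IL6 itself averaged 52.7 ± 5.15 TPM with DOX and 56.0 ± 5.54 TPM with vehicle. Of the other SOCS genes SOCS4 (-0.33 ± 0.05), SOCS7 (-0.42 ± 0.09) and SOCS5 (-0.19 ± 0.07) were lower and SOCS6 (0.26 ± 0.06) was higher. PTPN1 was higher by 0.44 ± 0.04, in the same direction as PTPN2 here, and 6 of 17 tested phosphatases and other inhibitors were higher and 3 lower. Among all genes tested in this experiment, 27.0% were higher and 23.4% lower. HSP90AB1 (-0.38 ± 0.03) and HSP90AA1 (-0.25 ± 0.03), chaperones on which JAKs depend, were lower, and SH2B1 (0.37 ± 0.08), an adaptor that binds JAK2, was higher.

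Because the scale of a library cancels in a ratio of 2 genes, 5 ratios between members were also compared in each experiment, chosen after the levels had been seen. A 3 against 3 exact permutation test cannot go below a two-sided p of 0.1, so none of the 15 comparisons could reach 0.05, and 9 had groups without overlap. Among single genes, groups without overlap made up 62.0%, 33.9% and 59.2% of those tested in the PBRM1, IRF1 and MUC1 experiments, so a ratio without overlap is given as a description. The IFNGR1/IFNGR2 ratio was 1.78, 1.74 and 1.71 in PBRM1-silenced cells against 2.41, 2.36 and 2.35 in control cells. In IRF1-silenced cells the ratio was 1.68, 1.75 and 1.67 against 1.12, 1.15 and 1.08 in control cells, and with DOX 0.750, 0.902 and 0.778 against 1.40, 1.39 and 1.34 with vehicle. The ratio of ligand-binding to signaling chain had lower values after PBRM1 and MUC1 silencing (log2 -0.44 and -0.77) and higher values after IRF1 silencing (log2 0.60), each at an exact permutation p = 0.1 (0.167 after adjustment over 15). The JAK1/JAK2 ratio lay higher without overlap in all 3 experiments. It averaged 5.40 ± 0.112 in PBRM1-silenced cells and 4.53 ± 0.0955 in control cells, 7.80 ± 0.0695 in IRF1-silenced cells and 7.06 ± 0.194 in control cells, and 18.8 ± 1.26 with DOX and 12.5 ± 0.302 with vehicle. The IFNAR1/IFNAR2 ratio overlapped between the groups in every experiment, at log2 differences of 0.04, 0.10 and 0.02 in the PBRM1, IRF1 and MUC1 experiments. The SOCS3/SOCS1 ratio was 3.19, 3.10 and 2.0 with DOX against 0.896, 0.873 and 1.02 with vehicle. In the IRF1 experiment it averaged 22.2 ± 4.05 in silenced cells and 17.0 ± 0.427 in control cells without overlap, and in the PBRM1 experiment the groups overlapped.

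**Figure D5:**
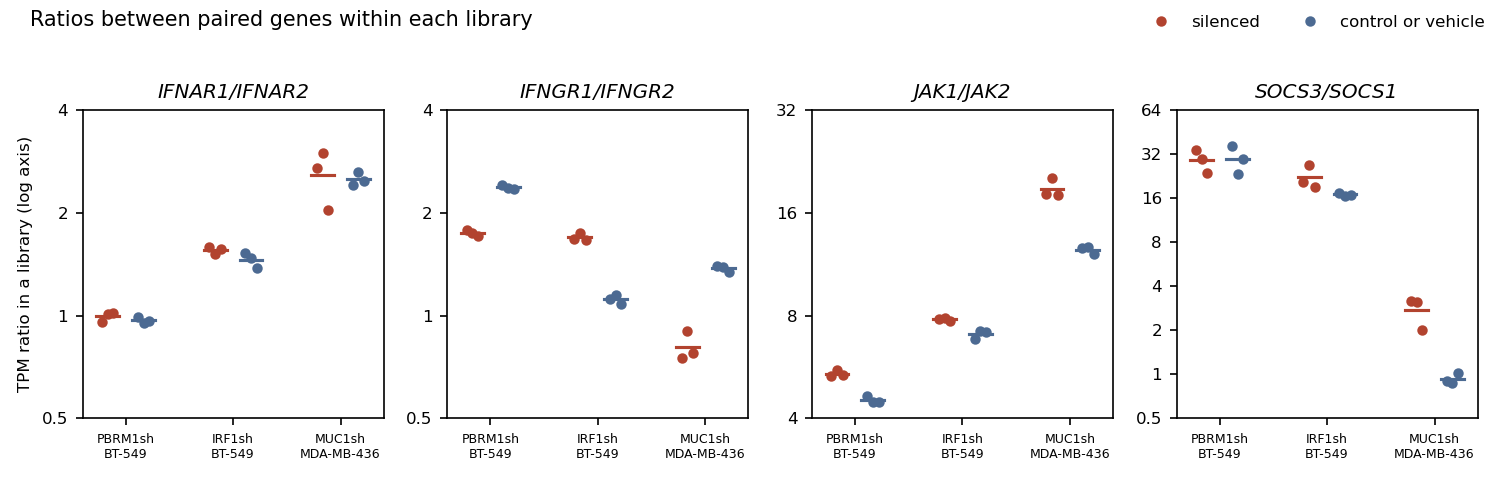
Ratio of the TPM of 2 genes within each library on a log axis, with 1 point per library and a line at the mean of 3, silenced or DOX-treated libraries left of control or vehicle libraries. The IFNGR1/IFNGR2 groups are apart in every experiment, with means of 1.75 and 2.37, 1.70 and 1.12, and 0.810 and 1.38 for silenced and control libraries, while the IFNAR1/IFNAR2 groups overlap.

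Differences between the effects were tested in 1 limma fit over all 18 libraries, which pools the spread across the tables. PBRM1 and IRF1 silencing, both in BT-549 cells, differed for 5 of 9 members, against 44.9% of 9032 genes. IFNGR2 showed the largest of these differences, with a PBRM1 effect of 0.31 and an IRF1 effect of -0.37 (difference 0.68 ± 0.13, adjusted p = 1.4e-05). PTPN2 was at -0.15 after PBRM1 silencing and 0.33 after IRF1 silencing (difference -0.48 ± 0.13, adjusted p = 0.00261). PBRM1 silencing in BT-549 cells and MUC1 silencing in MDA-MB-436 cells differed for 6 of 9 members, against 48.9% of 10220 genes. JAK1 was lower in the first and higher in the second (difference -0.68 ± 0.15, adjusted p = 2.1e-04). IRF1 and MUC1 silencing differed for 3 of 9 members, against 39.5% of 8961 genes, namely SOCS3 (-1.38 ± 0.13), IFNGR1 (0.85 ± 0.14) and IFNGR2 (-0.41 ± 0.13). The MUC1 experiment differs from the others in cell line, in the inducible hairpin and in DOX, and these cannot be told apart in such a difference.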

How the data were processed

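RNA was made into stranded mRNA libraries, per the labels, with 3 numbered replicates in each group. Such libraries should hold few short noncoding RNAs, which nevertheless took most of the TPM in both BT-549 tables; the cause was not tested, and TPM of other genes there are levels within the remainder. The labels do not say whether replicates came from separate cultures, so the spread between libraries, on which the p-values rest, may be technical. In the main BT-549 fits that spread is pooled over genes of like level, so a p-value there does not measure the spread of its own gene. The submitters' processing notes name STAR, DESeq2 and GRCh38, without versions; which annotation, read counter and TPM program served is not given in the sources used here. Each experiment has 1 table of TPM made by the authors. The authors deposited DESeq2 output for each as well (mean normalized count, fold change, its error, test statistic and p-values), of which only the mean normalized count, a depth-scaled signal averaged over 6 libraries, was used. TPM keeps no depth, so the depth of a library is unknown and no counting interval is given. The mean normalized counts sum to 27111321, 63114292 and 11858741 for PBRM1, IRF1 and MUC1 silencing.

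Genes with at least 1 TPM in at least 3 of 6 libraries were tested on log2(TPM + 1) with limma 3.58.1 in R 4.3.3 (lmFit, eBayes with trend, two-sided, Benjamini-Hochberg over all genes of a table). In MDA-MB-436 the prior had 4.98 degrees of freedom, while in BT-549 it had no finite number, so standard errors there follow the expression level. Folds are silenced over control, on a scale that understates changes of genes near 1 TPM. Scripts were tested on simulated data. The columns of the PBRM1 controls name the line but no hairpin, unlike those of the IRF1 controls, and match no single label. They were assigned to their group, with the last number of the column name as replicate number. In that experiment same-numbered libraries deviated together (correlations 0.455, 0.309 and 0.290), so a fit with this number as a block is given where it changes a call. Alternatives covered the pseudocount, the filter, scaling, the variance model, array weights, the replicate block and leaving out single libraries. The text names all 10 members, up to 4 genes of smallest adjusted p from each list of related genes (plus IL6 levels, STAT2 and STAT3, the single genes LIFR and IRF8, and the ratios, all chosen after values were seen), and the 3 genes most like any member past a log2 fold of 1. The members and lists were chosen with earlier results of these data known. Start-site sequences are from RefSeq (GRCh38.p14), and 9 of 10 members matched. Some results for related genes are not reported here.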

Additional observations from a re-analysis of the deposited data

Results flagged for a closer look

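The effect of silencing differed between experiments, by the fit over 18 libraries, for 14 pairings of a member with 2 experiments. Each comparison of 2 experiments tested 9 members. Such differences were also common among all genes tested, at 44.9% for PBRM1 against IRF1, 48.9% for PBRM1 against MUC1 and 39.5% for IRF1 against MUC1. For the BT-549 experiments (PBRM1 effect minus IRF1 effect, log2) the difference was 0.68 for IFNGR2, 0.35 for IFNAR2, -0.45 for JAK1, -0.50 for JAK2 and -0.48 for PTPN2. Between PBRM1 silencing in BT-549 cells and MUC1 silencing in MDA-MB-436 cells it was -1.20 for SOCS3, -0.68 for JAK1, 0.61 for IFNGR1, -0.51 for PTPN2, 0.36 for IFNAR1 and 0.35 for IFNAR2. Between IRF1 and MUC1 silencing it was -1.38 for SOCS3, 0.85 for IFNGR1 and -0.41 for IFNGR2. For IFNGR2, PBRM1-silenced cells had 13.8, 13.0 and 14.2 TPM against 11.1, 9.92 and 11.6 TPM in control cells, and IRF1-silenced cells had 3.80, 4.39 and 3.90 TPM against 6.32, 5.22 and 5.02 TPM in control cells.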

How the results depend on the processing

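The SOCS3, IFNGR1, JAK1, JAK2 and PTPN2 calls of the MUC1 experiment and the IFNAR1, IFNGR2, JAK1 and JAK2 calls of the PBRM1 experiment held under each alternative run. With no filter on low values IFNAR2 lost its call in the PBRM1 experiment (adjusted p = 0.0684). In the PBRM1 experiment, 5 members were lower with short noncoding RNAs left out, 6 with array weights and 5 with the replicate block, against 3 in the main analysis, and 2 to 5 without single libraries (5 without control replicate 2). Lower calls rose over all genes as well, from 3707 of 10639 genes in the main analysis to 6399 of 12685 with short noncoding RNAs left out. They were 5490 of 10639 with array weights, 4573 of 10639 with the replicate block and 4185 of 10224 without control replicate 2. IFNGR1 turned to 0.01 with median-ratio scaling, and SOCS3 to 0.06 with median-ratio scaling and 0.03 with quantile normalization. In the IRF1 experiment, against 1 lower and 1 higher, 0 were higher with no filter on low values, where IFNGR2 also lost its call (-0.37, adjusted p = 0.0677) and the 1 lower member was SOCS1 (-0.13), 0 lower and 0 higher at a mean of at least 5 TPM, 3 lower and 4 higher with short noncoding RNAs left out, 2 and 3 with median-ratio scaling, 2 and 5 with quantile normalization, and 4 and 4 with array weights. The estimation of array weights stopped before convergence in both BT-549 experiments. With the replicate block, 0 were lower and 0 higher (IFNGR2 -0.37, adjusted p = 0.231; PTPN2 0.33, adjusted p = 0.209), but neither there nor in the MUC1 experiment did same-numbered libraries all deviate together. Without single libraries of the IRF1 experiment 0 to 1 were lower and 0 to 1 higher. There IFNAR1 turned to 0.11, 0.05 and 0.09 and JAK2 to 0.06, 0.01 and 0.06 under the short-RNA, median-ratio and quantile scalings, and IFNAR2 to 0.02 under the first and last. Without single libraries the IRF1 folds ran over -0.10 to 0.10 for IFNAR1, -0.14 to 0.00 for IFNAR2, -0.03 to 0.21 for JAK1, -0.12 to 0.07 for JAK2 and -0.05 to 0.08 for TYK2. In the MUC1 experiment, 2 to 4 members were lower without single libraries (4 without DOX replicate 3), IFNGR2 turned to -0.01 with quantile normalization, and IFNAR2 ran over -0.22 to 0.03 without single libraries. Over all genes of that experiment, 3096 of 13229 were lower in the main analysis and 2792 of 13076 without DOX replicate 3. PBRM1 and IRF1 effects differed for 5 members in the main analysis, 9 with median-ratio scaling, 8 with quantile normalization and 1 at a mean of at least 5 TPM. IRF1 and MUC1 effects differed for 3 in the main analysis, 7 with short noncoding RNAs left out, 6 with median-ratio scaling and 6 with quantile normalization. Shares of all genes that differed were taken for the main fits only, at 44.9% for PBRM1 against IRF1 and 39.5% for IRF1 against MUC1. The counts under other settings are therefore not read as particular to the members. The PTPN2 difference between IRF1 and MUC1 silencing turned to 0.09, 0.22, 0.03 and 0.08 (0.1 TPM pseudocount, short RNAs left out, median-ratio, quantile) and that of IFNAR2 to -0.02 with that pseudocount. Over all genes, the PBRM1 experiment had 3707 lower and 2620 higher as deposited, 6399 lower with short noncoding RNAs left out, 4611 and 4558 higher with median-ratio and quantile scaling, and 1801 lower at a mean of at least 5 TPM. The IRF1 experiment had 1693 lower and 526 higher as deposited, 3735 and 4499 with short noncoding RNAs left out, 3300 and 3026 with median-ratio scaling, 2781 and 3626 with quantile normalization, 5117 and 3367 with array weights, 927 and 189 with the replicate block, 645 and 172 at a mean of at least 5 TPM, and 864 higher with no filter. The cause of these shifts was not tested. The replicate block changed no call of the MUC1 experiment.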
